A study of Mus musculus with 6 samples.

Results

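The genes of androgen synthesis in Leydig cells, the hormone-producing cells between the seminiferous tubules, were examined in heat-exposed mouse testis. They were chosen as the array probes whose gene name was 1 of 10 listed genes: Star, Cyp11a1, Cyp17a1, Hsd3b1, Hsd3b6, Hsd17b3, Insl3, Lhcgr, Nr5a1 and Srd5a1. Of these, 9 genes had such a probe, 11 of the 55681 probes on the array in all, and 9 of the 25275 genes tested. Insl3 had no probe of that name. There were 3 B6.MRLc1 samples and 3 B6 (C57BL/6) samples, all from males of 3 months, and the series' design gives 3 mice per strain. B6.MRLc1 is a congenic strain, in which the distal part of chromosome 1 (D1Mit202 to D1Mit403, 67.97 to 81.63 cM) comes from MRL mice and the remaining genome from B6. Both strains received 1 scrotal heat exposure at 43°C for 20 min, and testes were taken 10 days later. Testes without heat exposure were not used here, and no difference given here measures a response to heat. Each sample was whole-testis RNA on a one-colour array, so fewer Leydig cells and less RNA per Leydig cell cannot be told apart.

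Leydig cells make testosterone when luteinizing hormone from the pituitary binds its receptor and raises cyclic AMP. Cholesterol is moved into the mitochondria and its side chain is cut off to give pregnenolone. Enzymes of the endoplasmic reticulum then convert pregnenolone in steps to testosterone, which germ cells need, through Sertoli cells, to complete meiosis and spermatid development. Mice have several close copies of the 3-beta-hydroxysteroid dehydrogenase gene in a cluster on chromosome 3, of which Hsd3b6 marks adult Leydig cells and Hsd3b1 is shared with the adrenal and the ovary.

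The probes on which the main readings depend are shown because near-identical gene copies and overlapping transcripts limit what a 60-base probe identifies. The Hsd3b6 probe, at chr3:98610436-98610495 on the minus strand of mm9, and the brighter of the Hsd3b2 probes, at chr3:98515703-98515762 on the minus strand, each kept 1 of 3 reading frames open. The third is named Jak3 on the array, lies at chr8:74214085-74214144 on the plus strand, and lists a RefSeq transcript of Insl3 beside those of Jak3.
Hsd3b6: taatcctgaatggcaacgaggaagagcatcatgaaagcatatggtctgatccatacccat
Hsd3b2: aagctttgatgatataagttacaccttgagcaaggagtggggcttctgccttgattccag
Jak3 (lists Insl3): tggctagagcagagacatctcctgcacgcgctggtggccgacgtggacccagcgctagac

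The 250 bases upstream of the start sites of Hsd3b6 and Hsd3b1 are shown because these neighbouring genes were the members whose strains did not overlap. They come from RefSeq promoters of GRCm38.p6, in which 7 of the 10 members have an entry. Hsd3b6 lies at chr3:98814444-98814693 and Hsd3b1 at chr3:98859795-98860044, both on the minus strand. Capitals mark AGATAA, a motif of GATA factors, or its complement, which was searched on both strands and chosen after the sequences were seen.
Hsd3b6: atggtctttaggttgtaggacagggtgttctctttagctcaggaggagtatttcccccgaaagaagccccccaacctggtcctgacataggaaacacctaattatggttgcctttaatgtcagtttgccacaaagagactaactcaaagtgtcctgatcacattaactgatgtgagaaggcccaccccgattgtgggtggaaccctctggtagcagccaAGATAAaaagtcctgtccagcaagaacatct
Hsd3b1: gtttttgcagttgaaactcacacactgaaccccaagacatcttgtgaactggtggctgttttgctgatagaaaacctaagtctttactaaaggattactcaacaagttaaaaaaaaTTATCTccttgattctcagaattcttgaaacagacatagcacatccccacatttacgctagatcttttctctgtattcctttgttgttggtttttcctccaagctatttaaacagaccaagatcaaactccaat
The match ended 25 bases before the start site in Hsd3b6, on the printed strand, and 128 bases before it in Hsd3b1, on the other strand. Among 32851 promoters, 9.99% held this motif in the same window. The sequences were identical at 127 of 226 aligned bases (56.2%). The motif CAAGGNC, of the kind that Nr5a1 binds, was found on neither strand of these 2 windows. It occurred in 15% of all promoters and, among the members with an entry, in Insl3 only, where there were 2 matches. A match is a description of the letters in this window.

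All values are log2 of the scanner's processed signal divided by the array's 75th percentile, so 0 is that percentile. Differences are B6.MRLc1 minus B6 with the standard error (SE) of a limma fit over all genes, and a gene was called at a Benjamini-Hochberg adjusted p under 0.05. All 11 member probes were well above background on all 6 arrays, which shows signal in whole testis and not which cells gave it. Of all genes tested, 102 passed as higher in B6.MRLc1 and 559 as lower. On B6.MRLc1 arrays 58.0% to 64.7% of spots passed as well above background, and on B6 arrays 68.6% to 69.0%. No spot was flagged as saturated. The B6.MRLc1 arrays filled 1 row of the slide and the B6 arrays the other, and an effect of the row cannot be told apart from one of the strain. The labels do not name a mouse for each array, so p-values measure the spread between these samples. With 3 arrays against 3, the smallest p an exact permutation test can give is 0.1, so no single value can pass 0.05 by that test.

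Hsd3b6 read higher on every B6.MRLc1 array, while the other steps of the pathway measured smaller or opposite differences, and no member passed the test. Of the 9 members tested, 0 were called in either direction by limma, against 0.404% of all genes called higher and 2.62% called in either direction. At an unadjusted p under 0.05 stood 3 members (Hsd3b6, Hsd3b1 and Lhcgr), or 33.3%, against 20.3% of all genes. The strains did not overlap for 2 members (Hsd3b1 and Hsd3b6), both higher in B6.MRLc1, or 22.2% against 14.8% of all genes. For 0 members did they separate in the lower direction, against 13.8% of all genes. These shares are of few genes. The members' differences were above 0 for 7 and below 0 for 2, with a median of 0.09, beside 0.02 over all genes tested.

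**Figure D1:**
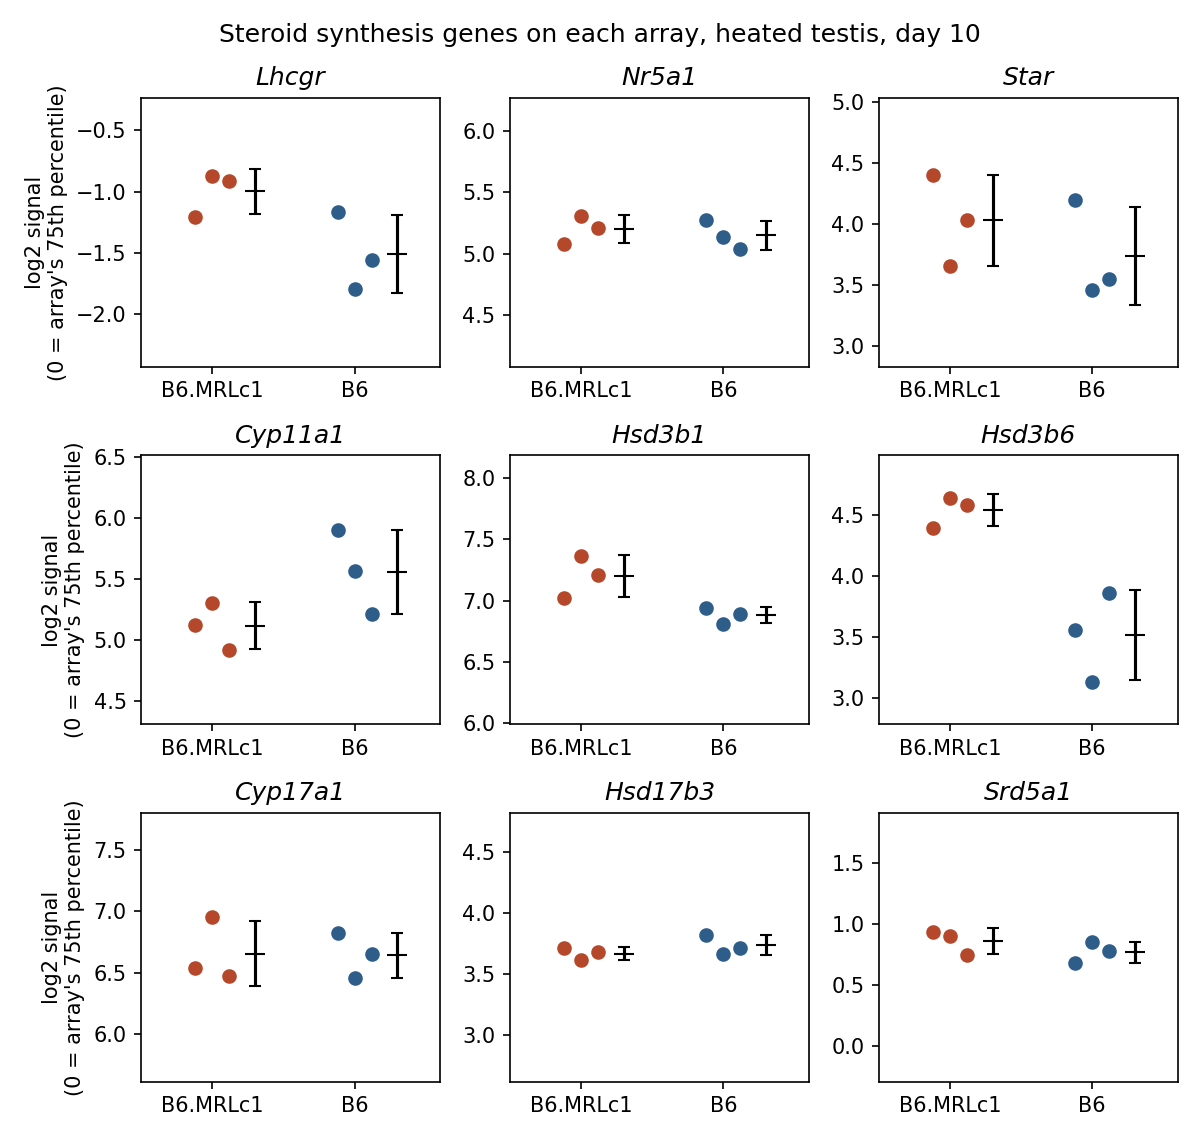
Log2 signal of the 9 members with a probe (0 is the array's 75th percentile) on each B6.MRLc1 array (left points) and B6 array (right points), with the mean and SD beside them (n = 3). Every panel spans the same range of log2 units; only Hsd3b1 and Hsd3b6 show no overlap between the strains.

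Lhcgr, the receptor for luteinizing hormone (chr17:89141300-89141359 on mm9, as for all probe positions below), read -1.21, -0.87 and -0.92 in B6.MRLc1 testes and -1.17, -1.80 and -1.56 in B6 testes. B6 array 1 lay within the B6.MRLc1 range, and the other B6 arrays lay below it. The difference was 0.51 (SE 0.18), or 1.42-fold, with a limma adjusted p of 0.204. Lhcgr kept its sign under all 18 alternative settings and was called under none, with adjusted p of 0.0694 to 0.420.

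Nr5a1 encodes steroidogenic factor 1, a nuclear receptor that drives most genes of the pathway (chr2:38548180-38548239). It read 5.08, 5.31 and 5.21 in B6.MRLc1 testes and 5.27, 5.13 and 5.04 in B6 testes. The strains overlapped almost wholly. The difference was 0.05 (SE 0.09; limma adjusted p = 0.791), with a 95% interval from 0.885-fold to 1.21-fold.

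Star carries cholesterol to the inner mitochondrial membrane, the step that the hormone controls acutely. Its brighter probe (chr8:26925460-26925519) read 4.40, 3.66 and 4.04 in B6.MRLc1 testes and 4.20, 3.46 and 3.56 in B6 testes. The second probe (chr8:26920280-26920339) read 2.72, 2.29 and 2.38 in B6.MRLc1 testes and 2.54, 1.89 and 2.23 in B6 testes. Array 1 was highest in both strains on both probes, and the strains overlapped. The difference was 0.29 (SE 0.27; limma adjusted p = 0.569) on the brighter probe and 0.25 (SE 0.20) on the other. The 95% interval of the first ran from 0.777-fold to 1.94-fold, wider than for any other member.

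Cyp11a1, the side-chain cleavage enzyme that makes pregnenolone, was the member with the lowest difference. Its probe (chr9:57874074-57874544, longer than 60 bases and so interrupted in the genome) read 5.12, 5.31 and 4.92 in B6.MRLc1 testes and 5.90, 5.56 and 5.21 in B6 testes. B6.MRLc1 array 2 lay above B6 array 3, and the other B6 arrays lay above all B6.MRLc1 arrays. The difference was -0.44 (SE 0.20; limma adjusted p = 0.280), with a 95% interval from 0.528-fold to 1.03-fold. Without 1 array at a time it ran from -0.61 to -0.27.

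Hsd3b6, the adult Leydig cell form of the enzyme that turns pregnenolone into progesterone, read 4.39, 4.64 and 4.58 in B6.MRLc1 testes and 3.56, 3.13 and 3.86 in B6 testes. The lowest B6.MRLc1 array was above the highest B6 array. The B6.MRLc1 arrays averaged 4.54 ± 0.13 and the B6 arrays 3.52 ± 0.37 (SD, n = 3 each). The difference was 1.02 (SE 0.19), or 2.03-fold with a 95% interval of 1.46 to 2.82, and a limma adjusted p of 0.0600. It was above 0 under all 18 alternatives, from 0.83 to 1.26, and passed under 4 of them. These were normexp background correction (0.98, adjusted p = 0.0322), a variance trend (adjusted p = 0.0218), array weights (1.26, adjusted p = 0.0260) and leaving out B6 array 3 (1.19, adjusted p = 0.0483). Over all alternatives the adjusted p ran from 0.0218 to 0.160.

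**Figure D2:**
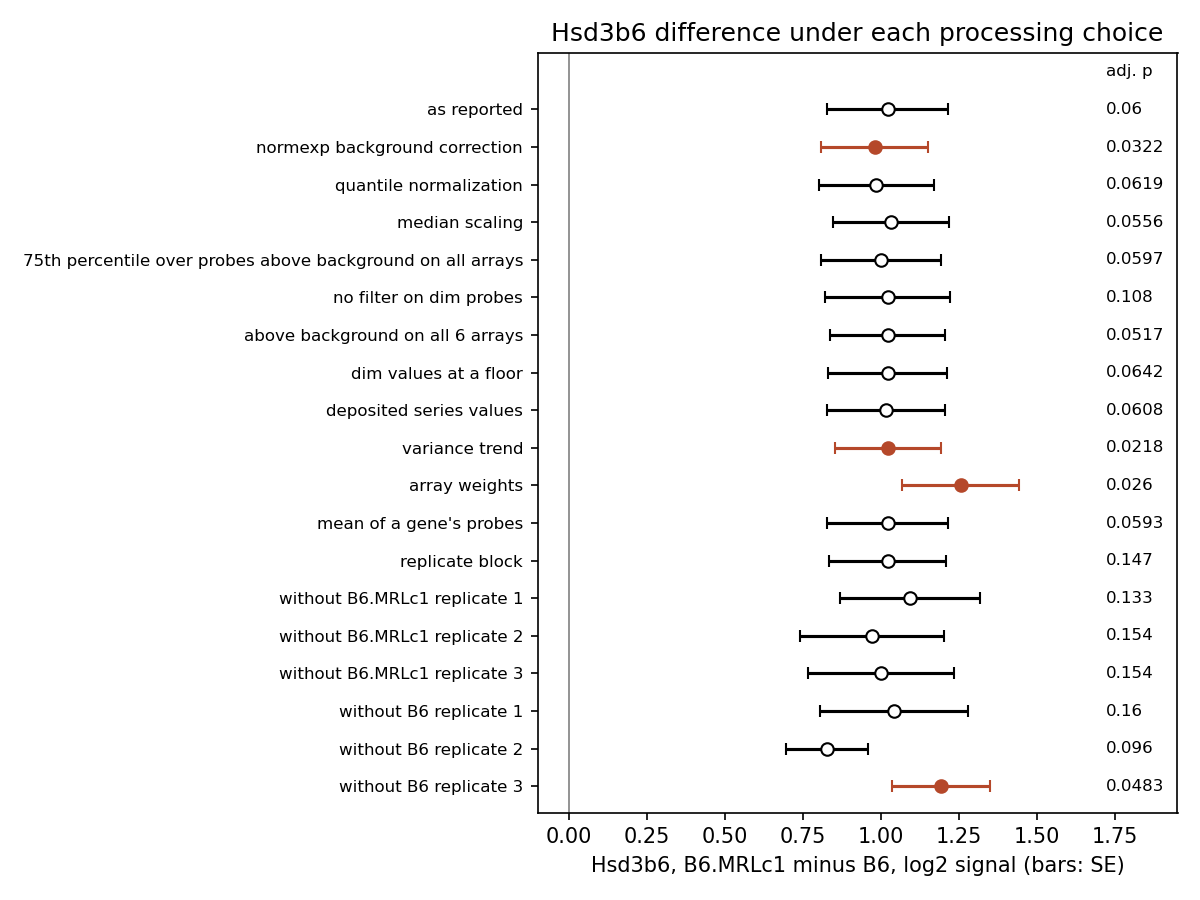
Difference of Hsd3b6 (B6.MRLc1 minus B6, log2 signal; bars are the SE) as reported and under each of the 18 alternatives, with the adjusted p at the right. Filled points have an adjusted p under 0.05; all points lie between 0.83 and 1.26.

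Hsd3b1 (chr3:98656127-98656186) read 7.02, 7.36 and 7.21 in B6.MRLc1 testes and 6.94, 6.81 and 6.89 in B6 testes. The strains did not overlap, and the gap between them was narrow. The difference was 0.32 (SE 0.10), or 1.25-fold with a 95% interval of 1.05 to 1.48, and a limma adjusted p of 0.163. The log2 signal of Hsd3b6 minus that of Hsd3b1 was -2.63, -2.73 and -2.63 on the B6.MRLc1 arrays and -3.38, -3.68 and -3.03 on the B6 arrays. These values did not overlap either, and the strains differed by 0.70 in them. This pair was set side by side after its values were seen, and an exact permutation test (two-sided) gave p = 0.1, the smallest this design allows, which does not pass 0.05. A pair of probes need not respond alike, so these values compare arrays and not the amounts of the enzymes.

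Other genes of the chromosome 3 cluster had probes too. Hsd3b2, a close copy outside the members, read 3.35, 3.45 and 3.56 in B6.MRLc1 testes and 2.38, 1.78 and 2.73 in B6 testes on its tested probe. The arrays stood in nearly the order seen for Hsd3b6, with B6 array 2 lowest and B6 array 3 next to the B6.MRLc1 arrays. The difference was 1.16 (SE 0.24; limma adjusted p = 0.0743). The second Hsd3b2 probe (chr3:98515054-98515113) was not well above background on any of the 6 arrays, nor were the probes of Hsd3b3, Hsd3b4 and Hsd3b5. As the Hsd3b2 probes disagree and the copies are close in sequence, which gene the brighter one reads is uncertain, and the same limit holds for Hsd3b6. Cross-hybridisation was not tested.

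**Figure D3:**
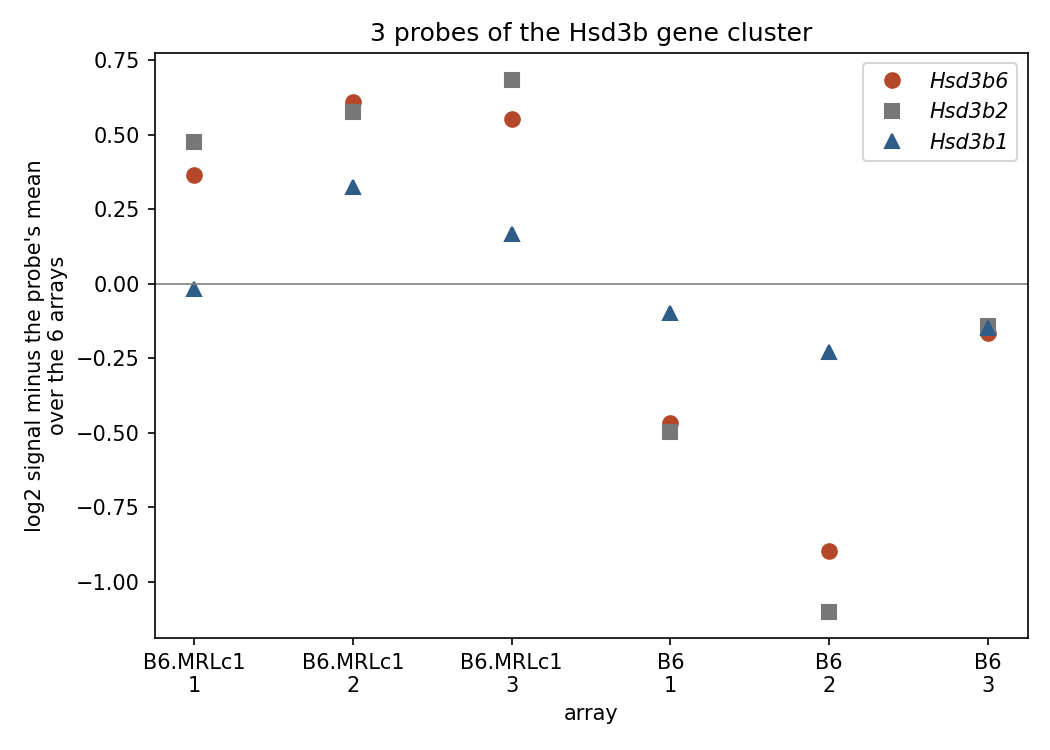
Log2 signal minus the probe's mean over the 6 arrays for the tested probes of Hsd3b6 (circles), Hsd3b2 (squares) and Hsd3b1 (triangles), on B6.MRLc1 arrays 1 to 3 (left) and B6 arrays 1 to 3 (right). For all 3 probes each B6.MRLc1 array lies above each B6 array, with B6 array 2 lowest.

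Cyp17a1, which makes androgens from progesterone by hydroxylation and side-chain removal (chr19:46742594-46743207), read 6.54, 6.96 and 6.47 in B6.MRLc1 testes and 6.82, 6.45 and 6.65 in B6 testes. The highest reading came from B6.MRLc1 and the lowest from B6, with the rest intermixed. The difference was 0.01 (SE 0.16; limma adjusted p = 0.972), with a 95% interval from 0.764-fold to 1.33-fold. Its sign turned under some settings.

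Hsd17b3 converts androstenedione to testosterone (chr13:64159943-64160741). It read 3.71, 3.61 and 3.68 in B6.MRLc1 testes and 3.82, 3.66 and 3.71 in B6 testes. This was the member with the narrowest interval: the difference was -0.07 (SE 0.07; limma adjusted p = 0.605), with a 95% interval from 0.853-fold to 1.07-fold.

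Srd5a1, a 5-alpha-reductase that reduces testosterone and its precursors, read 0.94, 0.90 and 0.75 in B6.MRLc1 testes and 0.68, 0.85 and 0.78 in B6 testes (chr13:69712376-69712435). The strains overlapped, with a difference of 0.09 (SE 0.08; limma adjusted p = 0.547). The second probe (chr13:69733518-69733577) lay near the floor, at -4.34, -4.32 and -4.36 in B6.MRLc1 testes and -4.51, -4.52 and -4.12 in B6 testes, and differed by 0.04.

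For Insl3, a Leydig cell peptide hormone that guides testis descent, only the probe named Jak3 offers a reading. It gave 8.98, 9.01 and 9.0 in B6.MRLc1 testes and 8.95, 8.93 and 9.02 in B6 testes, a difference of 0.03 (SE 0.05; limma adjusted p = 0.793). The other Jak3 probe (chr8:74210801-74210860) read -0.11, -0.52 and -0.62 in B6.MRLc1 testes and 0.25, -0.07 and -0.21 in B6 testes. The first probe is outside the rule, and which of the 2 genes it reads was not tested.

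**Figure D4:**
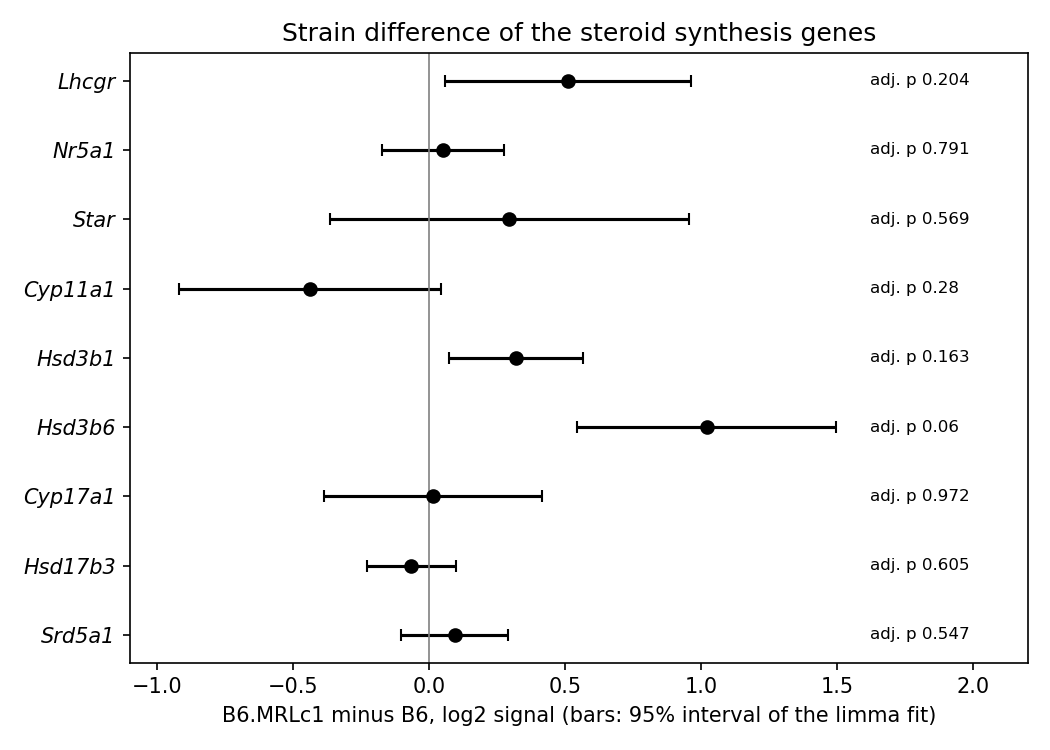
Difference of each member (B6.MRLc1 minus B6, log2 signal) with the 95% interval of the limma fit and the adjusted p, from the receptor at the top to Srd5a1 at the bottom. The intervals of Hsd3b6, Hsd3b1 and Lhcgr lie above 0, and no adjusted p is under 0.05.

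Members did not move as 1 block across the 6 arrays. Over their 36 pairs, 21 Pearson correlations were above 0 and the median was 0.19 (n = 6 arrays, which share strain and scaling). Hsd3b1 varied most like Lhcgr (0.90) and Hsd3b6 (0.88), while Cyp11a1 and Hsd3b6 varied oppositely (-0.73). A score, the median over members of the log2 signal minus the gene's mean, was 0.01, 0.13 and 0.04 on B6.MRLc1 arrays and 0.10, -0.20 and -0.13 on B6 arrays. B6 array 1 thus lay among the B6.MRLc1 arrays. The genes outside the members that followed this score most closely were Hoxc12 (r = 0.99), Abcc4 (0.99), Fibp (0.98), an unnamed noncoding transcript on chromosome 6 (0.98) and Hacl1 (0.98). None of these 5 was called, and Hoxc12 lay near the floor, at -4.7 on B6.MRLc1 array 1 and -5.6 on B6 array 2. An r over 0.9 was found for 152 of 25270 genes and an r over 0.95 for 39.

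Genes that supply, use or surround the pathway gave 2 calls, both higher, and the lists for its supply and regulation had medians above 0. Over 8 lists, which also hold Leydig cell markers and androgen targets and come to 93 tested genes, 2 rose and 0 fell by limma. In either direction this was 2.15% against 2.62% of all genes. In the higher direction alone it was 2.15% against 0.404% of all genes, a share that rests on 2 genes. The median difference was 0.11. The larger list of the 2 that held a call covers cholesterol supply, with 1 of 25 tested genes higher, 0 lower and a median of 0.22. Soat1, which esterifies cholesterol for storage, read 1.73, 1.61 and 1.71 in B6.MRLc1 testes and 1.11, 1.07 and 1.11 in B6 testes. The strains were well apart, and Soat1 rose by 0.59 (SE 0.06, 1.5-fold; limma adjusted p = 0.0191). Its probe lies on chromosome 1 (chr1:158358766-158358825), and whether that is inside the MRL segment was not determined, since the labels give the segment in cM. Soat1 was called under 12 of 18 alternatives, but among the 6 that left out 1 array only without B6.MRLc1 array 3 and without B6 array 3 (adjusted p of 0.0399 to 0.0684 over the 6).

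The genes of cholesterol synthesis that were nearest to a call measured small differences. Hmgcs1, the synthase early in the pathway, measured 0.24 (adjusted p = 0.143), and the mevalonate enzymes Mvk and Mvd measured 0.34 and 0.31 (adjusted p = 0.211 and 0.230). Hsd17b7, a cholesterol synthesis enzyme on chromosome 1 (chr1:171883182-171883241), measured 0.37 (adjusted p = 0.301). Its other probes measured 0.01 and 0.54, so its probes disagree in size. Over the list, 19 genes were above 0 and 6 below, beside 13642 above and 11633 below over all genes tested. The list's strains did not overlap for 6 genes in the higher direction (24% against 14.8% of all genes). In the lower direction they did not overlap for 2 (8% against 13.8%).

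The list for hormone receptor and cyclic AMP signalling, which also holds Prlr and enzymes that break down cyclic AMP, separated in 1 direction. These are RNA readings of whole testis, and signalling itself was not measured. Of 13 tested genes, 9 had every B6.MRLc1 array above every B6 array and 0 had the reverse, or 69.2% against 14.8% of all genes, and the median was 0.23. Only Prkar2b was called. This regulatory subunit of protein kinase A read 3.49, 3.49 and 3.33 in B6.MRLc1 testes and 3.02, 2.97 and 2.93 in B6 testes, and rose by 0.47 (SE 0.07; limma adjusted p = 0.0378). It was called under 9 of 18 alternatives and under 0 of the 6 that left out 1 array (adjusted p of 0.0510 to 0.129). Its other probes measured 0.65 and 0.11. Prlr, the prolactin receptor that Leydig cells carry, measured 0.47 (adjusted p = 0.0764), and the cyclic AMP phosphodiesterases Pde4d and Pde8a measured 0.44 and 0.23 (adjusted p = 0.0960 and 0.137).

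Regulators of Leydig cells and their precursors showed a like pattern without a call. Of 18 tested genes, 11 were separate in the higher direction and 0 in the lower (61.1% against 14.8% of all genes), with a median of 0.18. Markers of other somatic cells separated the same way in part, with 3 of 6 myoid markers (50%, median 0.17) and 3 of 10 Sertoli markers (30%, median 0.10) higher and 0 lower. Endothelial and macrophage markers did not, with 0 higher in either list. In the lower direction 16.7% of endothelial and 14.3% of macrophage markers were separate, against 13.8% of all genes. Dhh is in both the regulator and the Sertoli list and was counted as separate in each. Nr2f2, a transcription factor of interstitial precursors, measured 0.26 (adjusted p = 0.0800), and Gata4, a GATA factor of the somatic testis, measured 0.23 (adjusted p = 0.108). The medians of these 3 lists stayed above 0 under all 18 alternatives, at 0.11 to 0.28 for cholesterol supply, 0.14 to 0.25 for signalling and 0.15 to 0.21 for regulators.

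**Figure D5:**
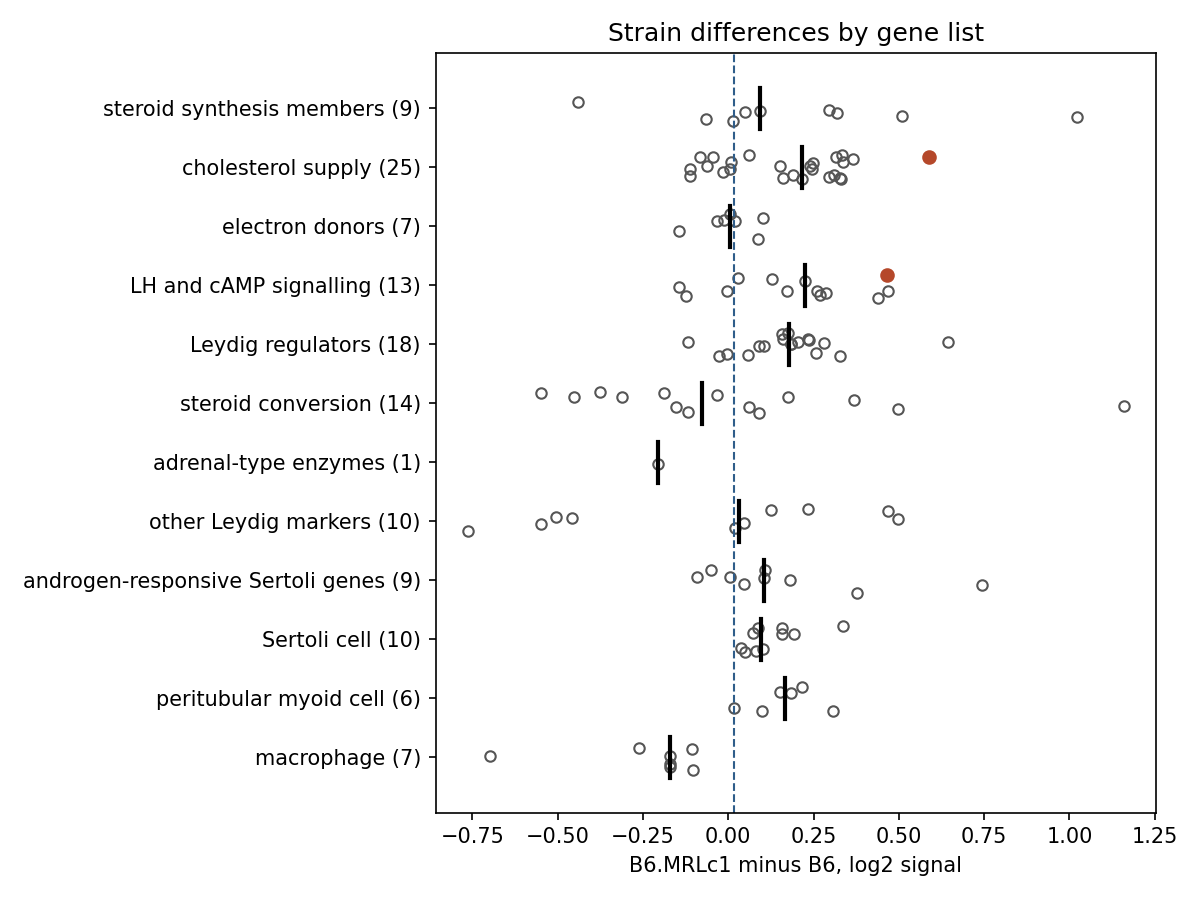
Difference (B6.MRLc1 minus B6, log2 signal) of each tested gene of 12 lists, with the number of genes tested in brackets; filled points were called, the black bar is the list's median and the dashed line the median of all genes (0.02). Soat1 and Prkar2b are the filled points; Hsd3b6 and Hsd3b2 lie farthest right.

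The remaining lists held 0 calls, and the median of each changed sign under at least 1 alternative. The electron donors of the cytochrome P450 enzymes had a median of 0.01 over 7 genes. Their members with the smallest p were Cyb5a, the cytochrome b5 that aids Cyp17a1, at 0.10, Fdxr at -0.15 and Cyb5b at 0.09. Other enzymes of steroid conversion had a median of -0.08 over 14 tested genes of 19, and besides Hsd3b2 the smallest p belonged to Sult1e1, an oestrogen sulfotransferase, at 0.50, and Hsd17b1 at -0.38. Of 4 adrenal-type genes, only Cyp21a1, the 21-hydroxylase, was tested, and it measured -0.21 (SE 0.46) with 2.61, 4.0 and 2.86 in B6.MRLc1 testes and 3.51, 3.87 and 2.70 in B6 testes. Cyp21a1 varied more between arrays of a strain than between strains.

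Further Leydig cell markers were mixed. Of these 10 genes, Fdx1, Prlr, Sult1e1 and Hsd11b1 are also in the lists above. The median was 0.03, with Prlr and Sult1e1 above 0 and Hsd11b1, which interconverts active and inactive glucocorticoid, at -0.55 (adjusted p = 0.250). The kallikreins Klk1b27, Klk1b21 and Klk1b24 measured -0.76, -0.51 and -0.46 (adjusted p = 0.268, 0.366 and 0.400), and they are close copies whose probes may not be told apart. The 9 androgen-responsive genes of Sertoli cells had a median of 0.11. Cldn3, a tight junction gene, measured 0.74 and Drd4 0.38 (adjusted p = 0.241 and 0.248), both with separate strains, and Tubb3 measured 0.18 (adjusted p = 0.274). The strains were thus separate in the higher direction for 22.2% of this list, against 14.8% of all genes. In the lower direction it was 0% against 13.8%. Differences were above 0 for 7 of the 9 genes and below 0 for 2. Rhox5, a homeobox gene widely used as a readout of androgen action, measured 0.11 (adjusted p = 0.752), and was named here after its value was seen.

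Markers of other cells differed between the same arrays. Linear signals summed over a list, in units of the array's 75th percentile, were 1.5 to 1.65 in B6.MRLc1 testes and 2.94 to 3.80 in B6 testes for 6 round spermatid markers. For 7 elongating spermatid markers they were 1.70 to 5.60 in B6.MRLc1 testes and 12.8 to 40.9 in B6 testes. In the first list Spaca7, Lyzl6, Dkkl1 and Acr fell, by 0.90 to 2.34, in the second Odf4 fell by 2.88, and 0 genes rose. Over all genes tested, 559 of 25275 fell. The strains were separate in the lower direction for 83.3% of the first list and 100% of the second, against 13.8% of all genes. In the second list Tnp2, Prm1 and Tnp1 measured -4.07, -3.55 and -3.24 without a call (limma adjusted p = 0.0650, 0.0696 and 0.0558). Spaca7 and Odf4 each passed the background test on 1 array of B6.MRLc1, and the size of their difference is uncertain. With normexp, Spaca7 measured -1.04, Acr -0.52, Lyzl6 -0.91, Dkkl1 -1.64 and Odf4 -0.94. The list medians were -1.71 and -2.88 as reported, and -0.71 and -1.98 with normexp. In the spermatocyte list Ldhc fell by 3.18 and the other 6 genes were not called. The strains were separate in the lower direction for 42.9% of this list, against 13.8% of all genes, and in the higher direction for 0%. Besides Ldhc these were Piwil1 at -2.27 (-0.73 with normexp) and Spo11 at -0.73 (-0.19 with normexp). In the spermatogonial list Dmrtb1 fell by 1.29 (-0.91 with normexp) and the other 6 genes were not called. Of these 7 spermatogonial genes 4 were above 0, with a median of 0.06.

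Markers of the supporting cells measured small differences. All 10 Sertoli markers were above 0, with 0 called, a median of 0.10 and sums of 737 to 781 in B6.MRLc1 testes and 675 to 767 in B6 testes. Their smallest p belonged to Fshr (0.34), Wt1 (0.16) and Dhh (0.16). The 6 myoid markers had a median of 0.17 and sums of 71.7 to 83.0 in B6.MRLc1 testes and 69.3 to 70.9 in B6 testes, with Mylk at 0.31, Myh11 at 0.22 and Acta2 at 0.15. The 7 macrophage markers were all below 0 (median -0.17; sums 55.2 to 60.7 in B6.MRLc1 testes and 55.1 to 76.0 in B6 testes), with Cd163 at -0.70 (-0.17 with normexp), Mrc1 at -0.17 and Cd68 at -0.26. The 6 endothelial markers had a median of -0.05, with Vwf at -0.20, Tek at -0.23 (-0.10 with normexp) and Pecam1 at 0.06. For the 9 members the sums were 349 to 420 in B6.MRLc1 testes and 317 to 381 in B6 testes. The part of tissue makeup in the differences of the members was not tested.

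Markers of fat carried over with the testis also differed: 4 of 5 were tested, with 0 called, a median of 1.06 and sums of 6.28 to 12.6 in B6.MRLc1 testes and 3.46 to 5.72 in B6 testes. Fabp4, Cfd and Adipoq measured 1.15, 1.04 and 1.09, but Plin1 measured 0.02 with overlapping strains, and Lep was not tested. Of the epididymal markers only Rnase10 was tested (0.24). Of the 3 red cell markers tested, Alas2 fell by 1.04. The others, Hba-a1 at 0.81 (SE 0.99) and Slc4a1 at 0.14, were above 0 and not called. The part of these tissues in the results was not tested.

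Over the 9 members with a probe, none lies on chromosome 1, which carries the MRL segment, and none was called. The positions of the probes are those of the array annotation, and exons and introns were not assigned.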

How the data were processed

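Total testis RNA was purified by the authors, per the labels' protocols, who checked its integrity and labelled 0.1 ug with Cy3 for one-colour Agilent arrays. Spot values in the deposited scanner tables are linear intensities, from which the scanner software had subtracted the background, per the file headers. Feature Extraction is given as 10.7.3.1 by the file headers and as 9.5.3 by the submitters' processing notes, and it is not known which of them was used. The genome build is mm9 (NCBI37), per the file headers. The deposited tables carry flags of 0 or 1 for spots above background, saturated or outlying. The deposited table of the whole series has log2 values, made in a way not given in the sources used here. Its column medians were 0.00474, 0.00986 and 0.0161 for B6.MRLc1 arrays 1 to 3 and -0.00298, -0.00405 and 0.0144 for B6 arrays 1 to 3. Of its values, 99.95% lay within 0.05 of the scaled log2 signals used here after each probe was centred on its median, and they served as an alternative.

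Control and outlier spots were dropped, the signals of an array were divided by their 75th percentile, log2 was taken and spots of a probe were averaged. A probe was kept with values on at least 4 arrays and over 0.5 of its spots well above background on at least 3 arrays (36626 of 55681 probes), and each gene was tested on its brightest probe (by mean over the arrays). Gene names came from RefSeq accessions (GRCm38.p6) for 27235 probes, from symbols for 3581 and from the file alone for 24865. Strains were compared with lmFit and eBayes of limma 3.58.1 (R 4.3.3), two-sided, with Benjamini-Hochberg adjustment over 25275 genes, and the code was tested on simulated data. The number of arrays limits the precision. Promoters were aligned globally with Biopython 1.88 (match 1, mismatch -1, gap opening -3, gap extension -1).

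The members and the 20 gene lists were chosen with earlier results of these data known. Named genes were all members, of every other list the called genes or else up to 3 with the smallest p, and the 5 genes most correlated with the members' score. A gene that this rule takes from the list of Leydig regulators is not reported here. Other genes named were picked after their values were seen. Alternatives covered background correction, normalization, filters, a floor, the series table, the variance model, array weights, the mean of probes, a replicate block and leaving out each array.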

Additional observations from a re-analysis of the deposited data

How the results depend on the processing

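Of the 9 members, Star, Cyp11a1, Hsd3b1, Hsd3b6, Hsd17b3, Lhcgr and Srd5a1 kept their sign under all 18 alternatives. Cyp17a1 turned to -0.00972 with the percentile taken over probes above background on all arrays, to -0.14 without B6.MRLc1 replicate 2 and to -0.08 without B6 replicate 2 (-0.14 to 0.11 without 1 array). Nr5a1 turned to -0.00323 without B6.MRLc1 replicate 2 and to -0.00494 without B6 replicate 3 (-0.00494 to 0.11 without 1 array). The median of all genes was -0.00464 with that percentile. The cause was not tested in any of these. The members called higher numbered 0 as reported and 1, Hsd3b6, with normexp, a variance trend, array weights and without B6 replicate 3 (0 to 1 without any 1 array). The members' median stayed above 0, and 0 members were called lower, under every alternative run. All genes called numbered 661 as reported, 1202 with a variance trend, 1606 with array weights, 50 without the filter on dim probes, and 50 to 482 without 1 array. Other genes of the pathway called numbered 2 as reported, 4 with normexp, 7 with a variance trend, 7 with array weights, 0 without the filter on dim probes, and 0 to 1 without 1 array. With the replicate number as a block, 0 genes were called over all genes, among the members and among other pathway genes, and Hsd3b6 had a limma adjusted p of 0.147. The replicate number was also the slide column, and same-numbered arrays deviated from their strain means with correlations of -0.04, 0.17 and 0.09, so the data do not show that the numbers pair the samples. Lhcgr is the tested member probe nearest to background, where the signal is least precise, and its difference was 0.41 with normexp.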
